A study of Mus musculus with 6 samples.

Results

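The genes described here encode 10 proteins that carry iron into cells, store it and release it: Trf, Tfrc, Steap3, Slc11a2, Slc11a1, Fth1, Ftl1, Slc40a1, Cp and Heph. They are 10 of the 51912 genes in the authors' table, and all 10 were among the 13139 genes that reached 1 TPM (a transcript's share of its library, corrected for transcript length and scaled to a fixed total) in at least 3 libraries. The set was chosen from known function with results of the CXCL3 comparison in view, in which Trf had stood out. The differences of its members between the groups are therefore given as a description and without a test. RNA was sequenced from primary mouse fibroblasts, from animals aged 6 weeks, either as controls or after 48 h of exposure to CXCL3, a chemokine, with 3 libraries in each group. The labels name no strain, organ of origin or dose of CXCL3. The labels do not say whether the 3 libraries of a group came from separate cultures or animals, so the spread between them may be technical.

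Iron travels in blood and culture medium bound to transferrin. The transferrin receptor brings it into endosomes, where a reductase frees it and a transporter of the SLC11 family moves it to the cytosol. Iron that is not used is kept inside ferritin, a hollow shell of heavy and light chains, and leaves the cell through ferroportin with the help of a copper-containing ferroxidase. Fibroblasts use this route for their own supply, while macrophages also recover large amounts of iron from engulfed cells. Control of these messengers runs through iron regulatory proteins, which bind hairpins called iron-responsive elements in the untranslated regions (UTRs) of several of them. A hairpin before the coding sequence lets these proteins block translation, and hairpins after it let them protect the messenger from decay.

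These hairpins are shown because they divide the set by how its messengers are known to be controlled. The UTRs of annotated coding transcripts (GENCODE, build GRCm38) were searched on the transcript's own strand for a C, then 5 bases, the loop CAGTGN and 5 more bases that pair with the first 5, with G and T allowed to pair. Lines give up to 30 bases from 5′ to 3′ with the loop in capitals, written as DNA.
Fth1, 5′ UTR: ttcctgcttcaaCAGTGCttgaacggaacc
Ftl1, 5′ UTR: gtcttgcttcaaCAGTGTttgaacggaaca
Slc40a1, 5′ UTR: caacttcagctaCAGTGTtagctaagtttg
Tfrc, 3′ UTR, the first: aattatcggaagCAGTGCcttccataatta
Tfrc, 3′ UTR, the second: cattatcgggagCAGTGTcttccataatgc
Tfrc, 3′ UTR, the third: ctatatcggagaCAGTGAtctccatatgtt
Tfrc, 3′ UTR, the fourth: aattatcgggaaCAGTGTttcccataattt
Slc11a2, 3′ UTR: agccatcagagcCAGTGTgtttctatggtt
The Fth1 window is chr19:9982732-9982761 on the plus strand and lies in 4 coding transcripts. The Ftl1 window is chr7:45459778-45459807 and the Slc40a1 window chr1:45925464-45925493, both on the minus strand and in the first exon. The 4 Tfrc windows lie in the last exon, on the plus strand, between chr16:32631219-32631248 and chr16:32631710-32631739. The Slc11a2 window is chr15:100395152-100395181 on the minus strand. It pairs at 4 of the 5 positions, and 1 of the annotated coding transcripts holds it. Among 12004 protein-coding genes that passed the filter, each searched in its longest coding transcript, 0.125% held a fully paired match in the 5′ UTR and 0.716% in the 3′ UTR. A match with 4 of 5 pairs in the 3′ UTR was found in 4.12% of these genes, and Tfrc was the 1 gene with 3 or more full matches there. Trf, Steap3, Slc11a1, Cp and Heph held no match in either UTR, which says only that these letters were not found there.

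On the TPM scale, which corrects for transcript length, the 10 genes ranged from among the most abundant of all to barely over the filter. Fth1, the ferritin heavy chain, averaged 24494 TPM over the 6 libraries and ranked 2 of all genes, and Ftl1, the ferritin light chain, averaged 9986 TPM and ranked 8. Both ferritin chains together made up 3.28% to 3.79% of the TPM of each library. Trf followed with a mean level of 487 TPM and rank 285, and then Slc11a1 with 129 TPM, Slc11a2 with 44.7 TPM and Tfrc with 27.9 TPM. Cp averaged 14.7 TPM and Heph 13.1 TPM, and the ranges of these neighbours overlapped. Steap3 averaged 7.38 TPM. Slc40a1, the exporter ferroportin, was lowest with 2.67 TPM and rank 11265. Apart from Cp and Heph, no neighbours in this order had overlapping ranges over the 6 libraries.

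The cultures held transcripts of more than fibroblasts. All 14 macrophage markers listed for this work were above 1 TPM in every library, led by Lyz2 (13115 to 16166 TPM), and their summed level was 16700 to 19772 TPM in controls and 16193 to 16301 TPM with CXCL3. Of 10 fibroblast markers, 9 were above 1 TPM in every library, and Lum stayed under 1 TPM in all 6. Their sum was 5009 to 7183 TPM in controls and 5627 to 5986 TPM with CXCL3. Within the macrophage list, 6 of the 14 markers were lower in every CXCL3 library than in every control and 1, Mrc1, was higher. Of the 9 fibroblast markers tested, 2 were lower and 1 was higher in this sense. Over all genes tested, 9.31% were lower in every CXCL3 library and 7.92% were higher. Limma, a linear model fitted to all 13139 genes tested, called 1 marker in each of these lists, C1qa and Col3a1, both lower with CXCL3 (adjusted p = 0.0493 and 0.0293). It called 0.16% of all genes tested. Without control 3, CXCL3 library 1 or CXCL3 library 2 it called no gene, so these calls hung on single libraries. Hepatocyte markers, relevant because liver is the main source of transferrin in the body, were near 0: Alb reached at most 0.36 TPM and Ttr was listed at 0 throughout. Apoa2 was the highest of these 7 markers, at 1.22 to 2.94 TPM in controls and 0.27 to 1.16 TPM with CXCL3. The 5 epithelial markers summed to at most 1.96 TPM and the 6 erythroid markers to at most 7.82 TPM. In such bulk samples, fewer cells of a type and less RNA per cell cannot be told apart. TPM keeps no read depth, so no counting interval can be given.

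The controls were less alike than the treated libraries, and this touches each value that follows. The median SD of a gene on the log2(TPM + 1) scale was 0.203 among controls and 0.0861 among CXCL3 libraries. All 10 iron genes had the wider spread in controls, with coefficients of variation of TPM of 6.87% (Fth1) to 32.7% (Slc40a1) against 1.74% (Ftl1) to 6.53% (Steap3) with CXCL3. Control 1 was the highest control for 7 members, whose longest transcripts were all at least 2726 bases (Slc11a1), and the lowest control for 3 members, whose longest transcripts were at most 2571 bases (Trf). Over the genes tested, which are no independent replicates, the signed distance of control 1 from the mean of the libraries rose with transcript length (Spearman correlation 0.45) while the distances of controls 2 and 3 fell with it (-0.502 and -0.478). The CXCL3 libraries lay on the side of control 1 (0.401, 0.37 and 0.199). The part of this length pattern in the group differences was examined by removing it from each library, with results given gene by gene.

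**Figure D1:**
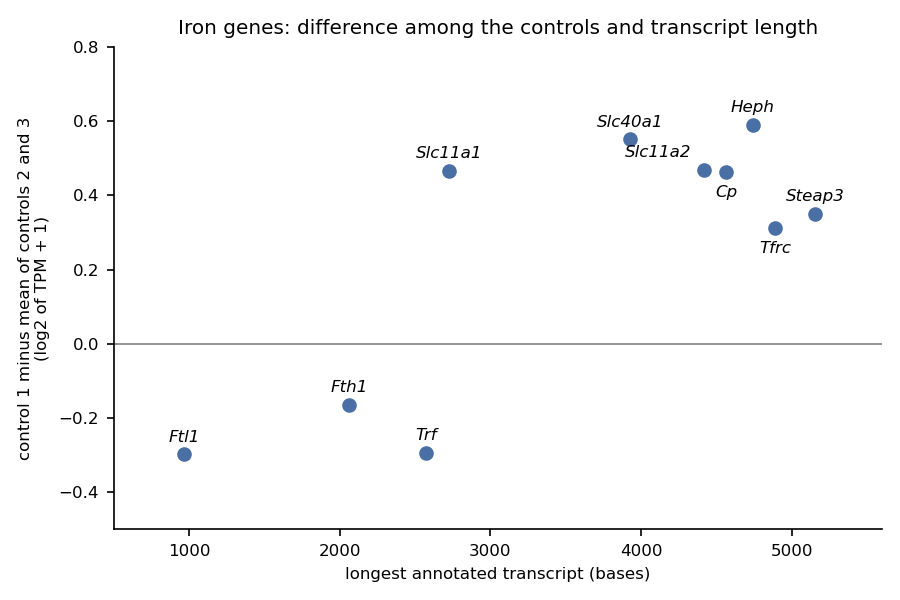
Each point is an iron gene. The horizontal axis gives its longest annotated transcript in bases and the vertical axis the log2(TPM + 1) of control 1 minus the mean of controls 2 and 3. Ftl1, Fth1 and Trf, with the shortest transcripts, lie below 0 (-0.30, -0.17 and -0.29), and the other 7 lie above, from 0.31 (Tfrc) to 0.59 (Heph).

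Trf, which encodes the iron carrier transferrin, showed the widest separation of the set. Controls 1, 2 and 3 held 530.3, 677 and 625 TPM, and CXCL3 libraries 1, 2 and 3 held 377, 361 and 355 TPM. All 3 treated libraries lay below all 3 controls, and even control 1, the lowest, was well above the highest treated library. The mean level was 611 ± 74.5 TPM in controls and 364 ± 11.4 TPM with CXCL3 (SD, n = 3 each), a ratio of 1.68. The fitted difference on the log2(TPM + 1) scale was -0.74 ± 0.09 (SE), and it was -0.74 once the length and GC trend was removed, -0.54 against control 1 alone and -0.84 without control 1. Trf (ENSMUSG00000032554) lies on chromosome 9 from 103204001 to 103230444 on the minus strand of GRCm38. It overlaps the predicted gene Gm20425 on the same strand, which was at 3.16 to 15.2 TPM, so the division of reads between them is uncertain, although Gm20425 averaged 1.43% of the level of Trf. The part that the macrophage and fibroblast markers, some of them lower and some higher with CXCL3, have in the difference of Trf was not tested.

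Of the 10 members, 1, Trf, was among the 0.16% of all genes that passed the threshold used for calls (limma, adjusted p of 0.05). That is how it stood out, so the call is no test of Trf and nothing is read from the count. The call also hung on single libraries: Trf passed in 5 of the 16 alternative settings, and did not pass without control 2, control 3 or any one CXCL3 library.

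Tfrc, the receptor that takes up iron-loaded transferrin, was at 30.8, 24.9 and 24.3 TPM without CXCL3, against 29.9, 29.7 and 28.2 TPM in its presence. The treated libraries lay between control 1 and the other 2 controls. The mean was 26.6 ± 3.58 TPM and 29.2 ± 0.90 TPM (SD, n = 3 each), a difference of 0.14 ± 0.11 on the log2(TPM + 1) scale that turned to -0.04 once the length and GC trend was removed and to -0.07 against control 1 alone. Steap3, the endosomal reductase that prepares iron for transport, was at 8.21, 5.44 and 7.10 TPM without CXCL3, against 7.96, 8.27 and 7.27 TPM in its presence. These groups overlapped as well, and the fitted difference of 0.17 ± 0.16 became -0.0006 with the trend removed. The ratio of Trf to Tfrc was 17.2, 27.2 and 25.8 in controls and 12.6, 12.2 and 12.6 with CXCL3. The 2 groups of ratios did not overlap, which restates the lower level of Trf beside a Tfrc whose groups overlapped. The longest transcripts of Trf and Tfrc differ in length (2571 and 4890 bases). The ratio was not corrected for the length and GC trend.

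Slc11a2 encodes DMT1, the transporter that releases iron from endosomes, and Slc11a1 encodes NRAMP1, its relative in the phagosomes of macrophages. Slc11a2 was at 55.3, 37.9 and 41.5 TPM without CXCL3, against 46.3, 42.6 and 44.7 TPM in its presence. The treated values lay inside the range of the controls, and the fitted difference was 0.01 ± 0.14. Slc11a1 was at 149, 92.4 and 126 TPM without CXCL3, against 131, 139.6 and 136 TPM in its presence, again inside the range of the controls (0.17 ± 0.16). Slc11a1 exceeded Slc11a2 in all 6 libraries, by a ratio of 2.44 to 3.03 in controls and 2.84 to 3.28 with CXCL3. The macrophage markers Adgre1 (363 to 507 TPM in controls, 436 to 458 TPM with CXCL3) and Csf1r (84.3 to 110.1 and 98.5 to 101.9 TPM) also had the treated libraries inside the range of the controls, but the macrophage list did not share 1 arrangement: C1qa, C1qb, C1qc, Fcer1g, Tyrobp and Lyz2 were lower and Mrc1 was higher in every CXCL3 library. For Tyrobp the highest treated library was only just under the lowest control (603 and 605 TPM), as it was for Lyz2 (13244 and 13260 TPM). The part of the macrophages in the level of Slc11a1 was not tested.

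**Figure D2:**
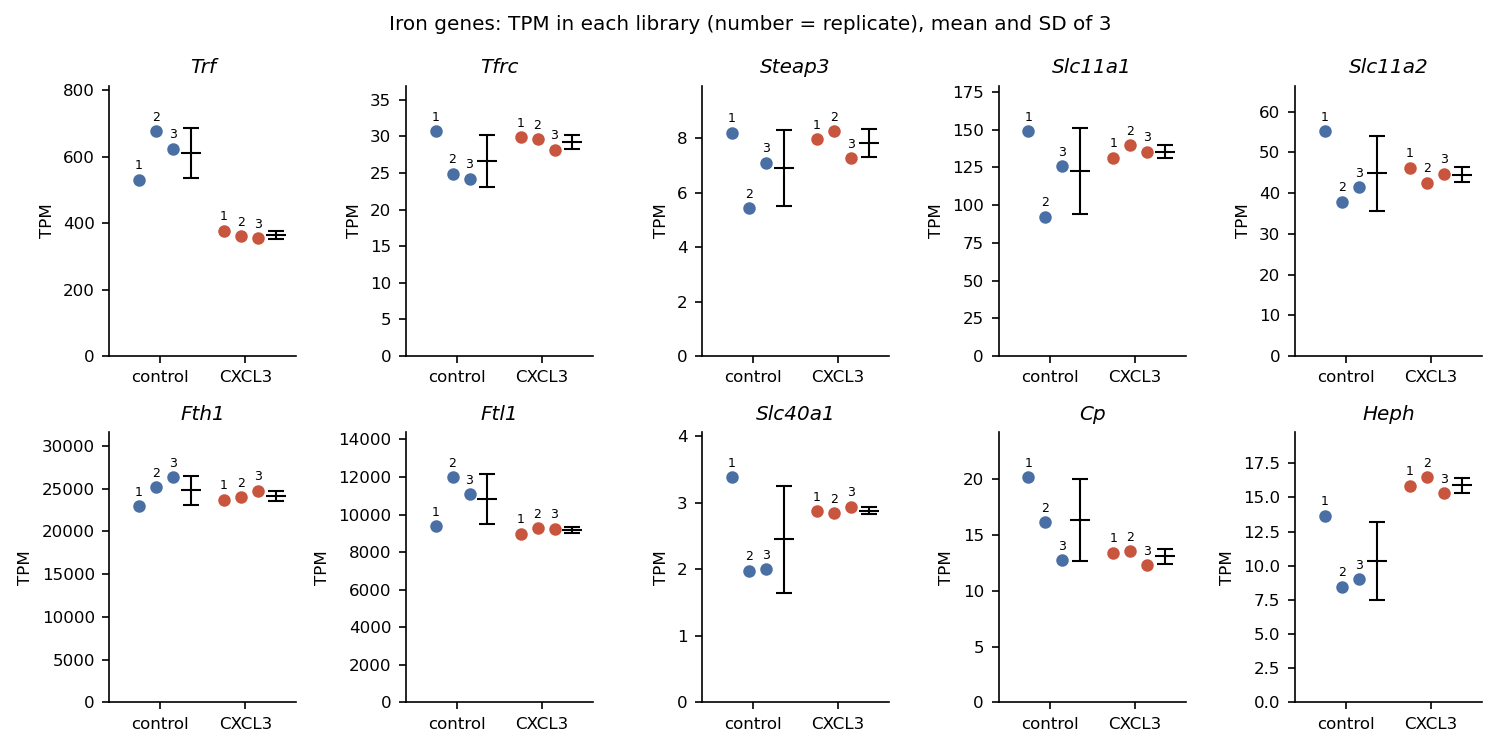
TPM of each iron gene in each library, on linear axes that start at 0. Points are libraries, labelled with the replicate number, and the bar beside each group is its mean and SD of 3. Trf and Ftl1 are lower and Heph is higher in every CXCL3 library than in every control, and the other 7 genes overlap.

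The ferritin chains were not in a fixed proportion. Fth1, whose product oxidises iron for storage, was at 22963, 25205 and 26311 TPM without CXCL3, against 23695, 24022 and 24770.1 TPM in its presence. The treated libraries lay within the range of the controls, and the difference was -0.04 ± 0.08 on the log2(TPM + 1) scale. Ftl1, whose product helps the iron core to form, was at 9368, 11971 and 11083 TPM without CXCL3, against 8980.45, 9269.94 and 9242 TPM in its presence. All 3 treated libraries were below all 3 controls, but the highest treated library was only just under control 1. The means were 10807 ± 1323 and 9164 ± 159.6 TPM (SD, n = 3 each), a difference of -0.23 ± 0.10. This difference shrank to -0.14 once the length and GC trend was removed and to -0.03 against control 1 alone, and with median-of-ratios scaling the groups overlapped. Fth1 (ENSMUSG00000024661) lies on chromosome 19 from 9980598 to 9985098 on the plus strand of GRCm38, and Ftl1 (ENSMUSG00000050708) on chromosome 7 from 45457944 to 45459884 on the minus strand.

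The ratio of Fth1 to Ftl1 compares both chains within a library. It was 2.45, 2.11 and 2.37 in controls and 2.64, 2.59 and 2.68 with CXCL3, so that every treated library was above every control. The means were 2.31 ± 0.18 and 2.64 ± 0.04 (SD, n = 3 each). The longest transcripts of Fth1 and Ftl1 differ in length (2062 and 968 bases), and this ratio was not corrected for the length and GC trend. Ferritin genes have processed copies elsewhere in the genome whose reads can be confused with theirs. Ftl1-ps1 was at 11.3 to 31.7 TPM, Ftl2-ps at 0.99 to 36.3 TPM and Fth-ps3 at 0 to 1.12 TPM. These levels averaged at most 0.186% of the parent gene. The predicted gene Gm10252, on the strand opposite to Ftl1, was at 10.1 to 15.0 TPM.

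Slc40a1, which encodes ferroportin, the known exporter of cellular iron, was at 3.38, 1.98 and 2.00 TPM without CXCL3, against 2.87, 2.84 and 2.94 TPM in its presence. Control 1 was the highest and controls 2 and 3 the lowest of all libraries, with the treated ones between. The fitted difference of 0.19 ± 0.19 became 0.09 with the trend removed and -0.17 against control 1 alone.

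Cp and Heph encode ferroxidases that work beside ferroportin. Cp encodes ceruloplasmin, which is mostly secreted. It was at 20.1, 16.1 and 12.7 TPM without CXCL3, against 13.4, 13.5 and 12.3 TPM in its presence. The groups overlapped through control 3, and the difference was -0.28 ± 0.16. With the trend removed it was -0.42, against control 1 alone -0.59 and without control 1 only -0.13. The groups no longer overlapped once the trend was removed, but they still overlapped without control 1. Nothing is read from that separation, because the share of all genes without overlap was not counted with the trend removed. Hps3, on the opposite strand, overlaps Cp and was at 7.90 to 10.8 TPM, so reads from their overlap cannot be told apart without strand. Hps3 averaged 67.3% of the level of Cp. Heph encodes hephaestin, the membrane-bound relative of ceruloplasmin. It was at 13.7, 8.46 and 9.02 TPM without CXCL3, against 15.9, 16.5 and 15.3 TPM in its presence, so that every treated library was above every control. The means were 10.4 ± 2.85 and 15.9 ± 0.57 TPM (SD, n = 3 each), a ratio of 1.53 and a difference of 0.60 ± 0.18. Against control 1 alone the difference was 0.20, and once the length and GC trend was removed it was 0.46.

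Cp stood above Heph in 3 of 3 controls and below it in 3 of 3 CXCL3 libraries. The ratio of Heph to Cp was 0.679, 0.525 and 0.708 in controls and 1.18, 1.22 and 1.25 with CXCL3. In this ratio control 1 lay between controls 2 and 3, although it was the highest control for each of the genes. Cp (ENSMUSG00000003617) lies on chromosome 3 from 19957054 to 20009145 and Heph (ENSMUSG00000031209) on chromosome X from 96455359 to 96574485, both on the plus strand of GRCm38. Both genes have long transcripts of similar length, 4743 bases for Heph and 4564 bases for Cp. The parts of the division among the controls and of the overlap of Cp with Hps3 in this ratio were not tested.

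**Figure D3:**
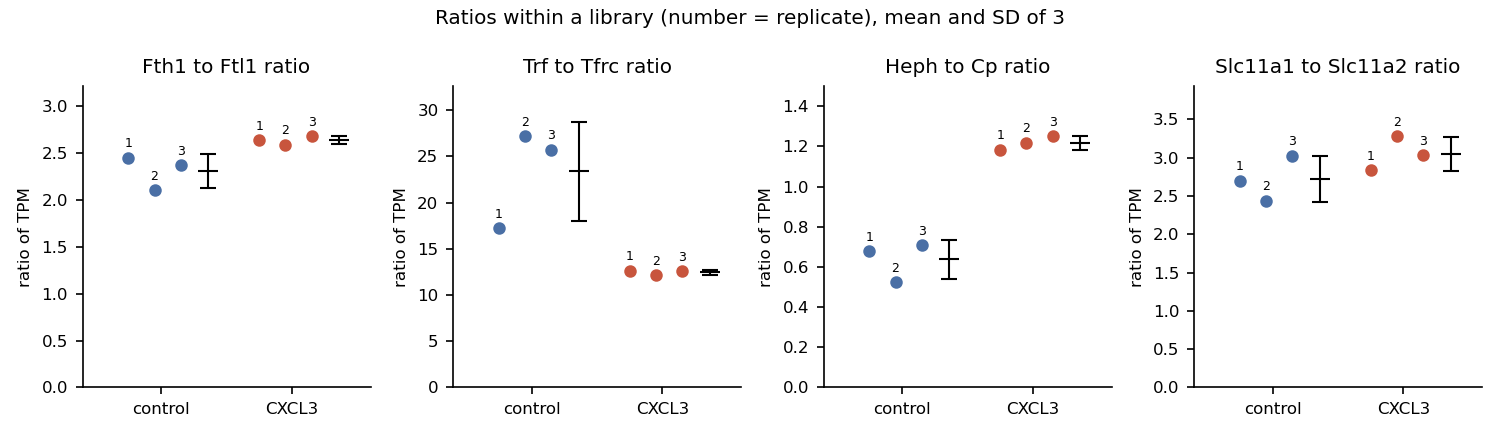
Ratios of TPM between paired iron genes within each library, on linear axes that start at 0, with libraries as numbered points and the mean and SD of 3 beside each group. The ratio of Trf to Tfrc is lower, and those of Fth1 to Ftl1 and Heph to Cp are higher, in every CXCL3 library. The ratio of Slc11a1 to Slc11a2 overlaps between the groups. The ratios of Fth1 to Tfrc and of Slc40a1 to Tfrc, not drawn, overlap as well. The ratios of Trf to Tfrc, of Heph to Cp and of Slc40a1 to Tfrc were not planned in advance. None of the ratios was corrected for the length and GC trend. How often the ratios of other gene pairs separate was not counted.

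Counted together, 3 of the 10 members had groups that did not overlap. Trf and Ftl1 were lower, as were 9.31% of all genes tested, and Heph was higher, as were 7.92% of all genes. The fitted differences were positive for 6 members and negative for 4, with a median of 0.07, and the median over all genes was 0.07 too. The 3 members with a hairpin in the 5′ UTR differed by -0.04 (Fth1), -0.23 (Ftl1) and 0.19 (Slc40a1). Those with hairpins in the 3′ UTR differed by 0.14 (Tfrc) and 0.01 (Slc11a2). The widest differences, of Trf and Heph, belonged to genes in which the search found no match.

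How far a direction depends on the controls varied between members. Trf, Ftl1, Cp and Heph kept their sign in all 16 alternative settings, which for Trf, Ftl1 and Heph follows in part from groups that do not overlap. The other 6 changed sign in at least 1 setting. Against control 1 alone, 6 of the 10 changed sign: Tfrc, Steap3, Slc11a1, Slc11a2, Slc40a1 and Fth1. Once the length and GC trend was removed, Tfrc, Steap3 and Slc11a2 did so.

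**Figure D4:**
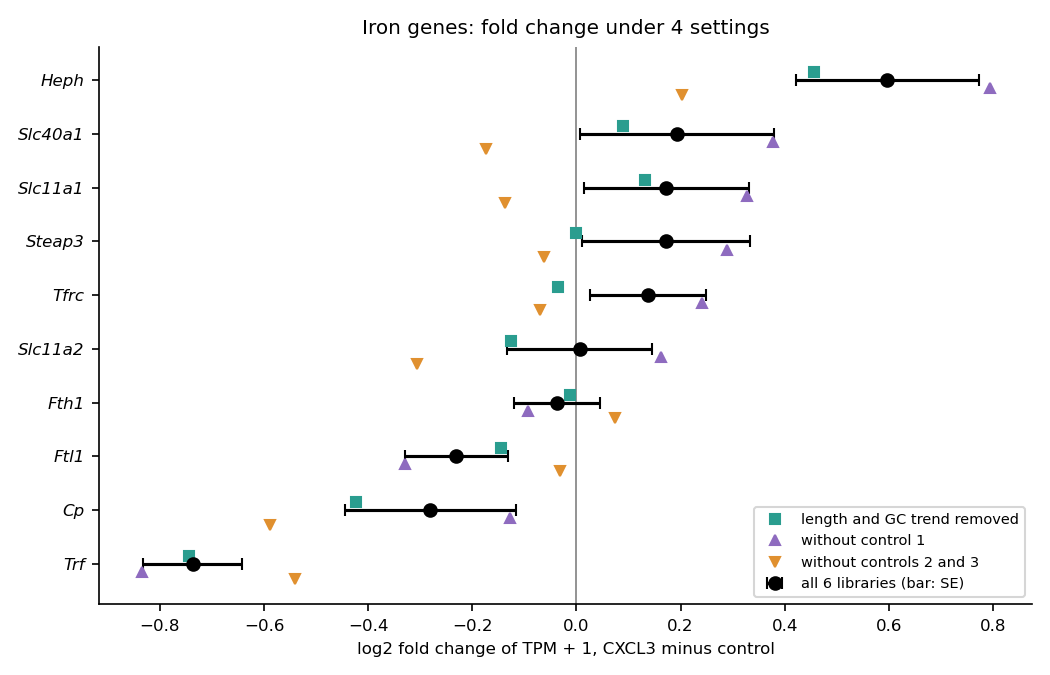
Log2 fold change of TPM + 1, CXCL3 minus control, for each iron gene. Black points with SE bars use all 6 libraries, squares have the length and GC trend removed, upward triangles leave out control 1 and downward triangles controls 2 and 3. Trf stays between -0.84 and -0.54 and Heph between 0.20 and 0.79, while Tfrc, Steap3, Slc11a1, Slc11a2, Slc40a1 and Fth1 fall on both sides of 0.

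Genes with the profile most like that of a member over the 6 libraries were sought among the 9460 other protein-coding genes with a mean of at least 5 TPM. For Trf these were Chd9, Crabp2 and Syngr1, with a Pearson correlation of 0.998, 0.998 and 0.997 on the log2(TPM + 1) scale, and 163 genes exceeded 0.95. For Fth1 they were Npm3, Tatdn1 and Eif3f (0.991, 0.984 and 0.980), and 22 genes exceeded 0.95. For Tfrc they were Jade2, 2410131K14Rik and Pon3 (1.00, 0.999 and 0.999), and 1359 genes exceeded 0.95. All are descriptions over libraries that share the division among the controls.

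Beyond these 10, a wider list held 67 further genes of iron and haem handling, of which 57 passed the filter. Limma called 0 of them higher and 1 lower, haptoglobin, where 0.16% of all genes were called. An unadjusted p under 0.05 was reached by 7 of the 57 and by 11.6% of all genes, and the counts by function that follow are to be read against that share. Their median difference was 0.02, with 31 positive and 26 negative. The groups did not overlap for 1 higher gene and 8 lower ones, against 7.92% and 9.31% of all genes. Without control 1, 18 of the 57 passed, where 32.4% of all genes did, and without control 3 or any one CXCL3 library 0 of the 57 did. Genes that are typical of the liver's control of iron were near 0: Hamp, which encodes the hormone hepcidin, reached 0.41 TPM in 1 control and was listed at 0 in the other 5 libraries, and Hamp2 and Hfe2 were listed at 0 throughout.

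Of 12 genes that capture, carry and break down haem, Hp, which encodes the haemoglobin-binding protein haptoglobin, fell. It was at 311, 335 and 319.8 TPM without CXCL3, against 192, 195 and 196 TPM in its presence. The groups lay far apart and each was tight (limma, log2 difference -0.72 ± 0.06 SE, adjusted p = 0.0293). This call was lost without control 3 (0.10) and without CXCL3 library 1, 2 or 3 (0.227, 0.175 and 0.184). It was lost as well when no filter was set (0.107), under median-of-ratios scaling (0.113) and with eBayes lacking a trend (0.108). Hmox1, the inducible haem oxygenase that frees iron from haem, averaged 1817 ± 131 TPM without CXCL3 and 1695 ± 41.3 TPM in its presence (n = 3 each; limma, adjusted p = 0.527). Hmox2, the constitutive form, was at 87.7 ± 3.71 and 76.4 ± 3.23 TPM (0.38), and the haem transporter gene Slc48a1 at 157 ± 12.03 and 172 ± 4.74 TPM (0.475).

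Among 9 other importers, reductases and iron-binding proteins tested, none passed, and 2 had an unadjusted p under 0.05. Hephl1, the third ferroxidase of the family of Cp and Heph, was at 3.11, 1.69 and 1.75 TPM without CXCL3, against 4.54, 4.42 and 3.86 TPM in its presence, all above the controls (limma, 0.75 ± 0.20 SE, adjusted p = 0.263). Steap1, a relative of Steap3, was at 90.3, 107 and 90.4 TPM without CXCL3, against 73.1, 78.8 and 74.3 TPM in its presence, all below (-0.34 ± 0.09, adjusted p = 0.263). Lcn2, which encodes the siderophore-binding lipocalin, was at 137 ± 11.1 and 133 ± 4.16 TPM (n = 3 each; limma, adjusted p = 0.806).

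None of the 8 tested genes of iron sensing and the hepcidin axis passed, and 1 had an unadjusted p under 0.05. Tfr2, the second transferrin receptor, was at 2.37, 2.51 and 2.70 TPM without CXCL3, against 1.52, 1.57 and 1.12 TPM in its presence, which did not overlap (limma, -0.56 ± 0.15 SE, adjusted p = 0.267). Neo1, which encodes neogenin, was at 27.5, 13.9 and 15.6 TPM and at 27.2, 27.2 and 24.7 TPM (adjusted p = 0.437), with control 1 beside the treated libraries. Fbxl5, of the iron-sensing ubiquitin ligase subunit that removes an iron regulatory protein, was at 35.8 ± 4.80 and 37.6 ± 1.04 TPM (n = 3 each; limma, adjusted p = 0.735).

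For ferritin turnover, Ncoa4, the receptor that delivers ferritin to lysosomes, was at 75.7, 44 and 52.8 TPM without CXCL3, against 72.2, 76.6 and 75.9 TPM in its presence (limma, adjusted p = 0.429). Control 1 lay among the treated libraries. The iron chaperone genes Pcbp1 and Pcbp2 differed by 0.02 ± 0.08 and 0.03 ± 0.08 (adjusted p = 0.921 and 0.88). Haem synthesis genes (8 tested) had a median difference of 0.01, with Alas1, the rate-limiting enzyme, at 119 ± 15.6 and 131 ± 9.13 TPM (n = 3 each; limma, adjusted p = 0.525) and Cpox at 12.9 ± 2.92 and 15.5 ± 1.00 TPM (0.48). Of 17 genes of mitochondrial iron import and iron-sulphur cluster assembly, 12 had negative differences, as had 37.7% of all genes, with a median of -0.05 against 0.07 over all genes. Of these 17 genes, 2 had an unadjusted p under 0.05. The cluster scaffold gene Iscu was at 178, 221 and 207 TPM without CXCL3, against 167, 169 and 177 TPM in its presence (limma, adjusted p = 0.402). The glutaredoxin gene Glrx5 was at 49.3, 71.3 and 72.2 TPM and 44, 48.8 and 51.7 TPM (limma, adjusted p = 0.413). Their differences of -0.23 and -0.39 shrank to -0.06 and -0.04 against control 1 alone. A correction for the length and GC trend left them at -0.14 and -0.43. How far the count and median of the 17 genes depend on the controls was not tested.

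**Figure D5:**
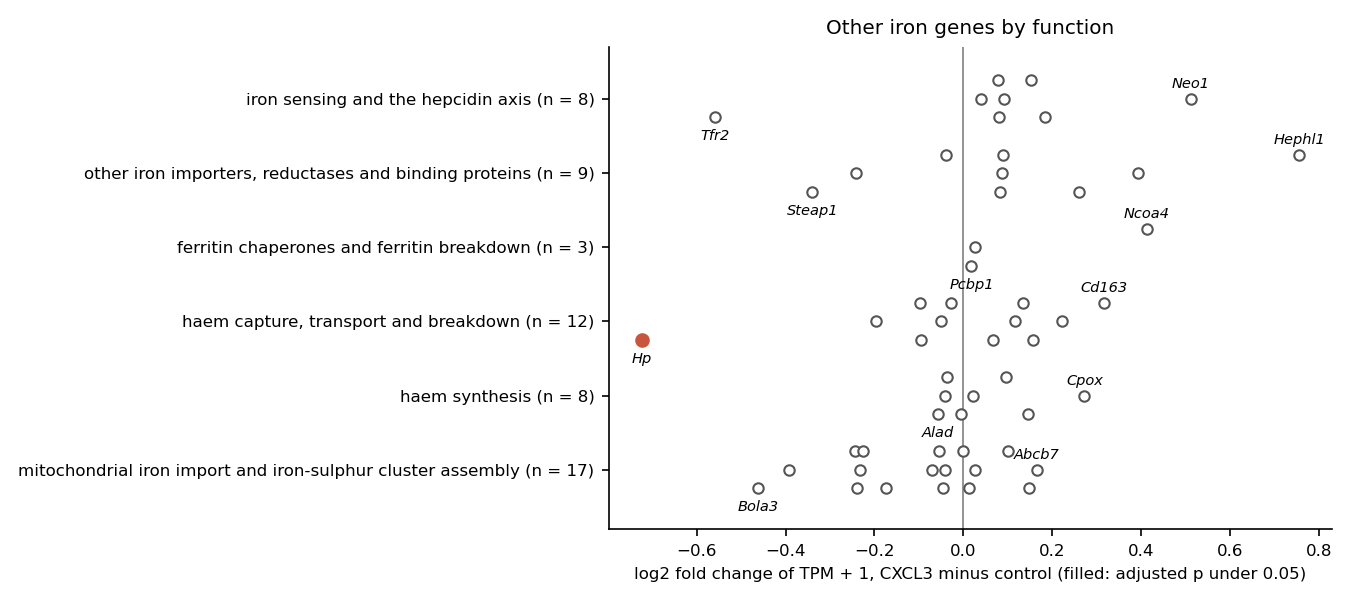
Log2 fold change of TPM + 1, CXCL3 minus control, for the 57 other iron genes tested, by function. Each circle is a gene, the lowest and highest of each row are named, and the filled circle is the 1 gene with an adjusted p under 0.05, Hp (-0.72). Hephl1 lies farthest to the right (0.75) without passing.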

How the data were processed

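TPM values of 51912 genes in 6 libraries were used as the authors deposited them, and each library summed to 984281 to 986705. The submitters' processing notes name fastp, HISAT, RSEM and the build GRCm38.p5, without versions. The annotation release and the strandedness were not given in the sources used here. Identifiers were matched to GENCODE M21 (GRCm38), which named 51719 genes. Genes with at least 1 TPM in at least 3 libraries were kept (13139), and log2(TPM + 1) was compared between groups, CXCL3 minus control, two-sided, with limma 3.58.1 (trend) in R 4.3.3 and Benjamini-Hochberg adjustment over all genes kept, at a threshold of 0.05. A difference on this scale understates changes of low genes. The length and GC trend was removed from each library by loess (span 0.3) on the longest transcript, known for 13114 genes.

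The members, the lists and the settings were chosen with earlier results of these data known. Named are all members, overlapping genes and copies above 1 TPM, and, of the wider list, those that passed and in each function the 2 with the smallest p and the most abundant. Genes named for a marker list, for a level near 0 or at the end of a plotted row were chosen after their values were seen.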

Additional observations from a re-analysis of the deposited data

How the results depend on the processing

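The number of genes called over the whole table (limma, 21) became 0 when no filter was set, 4 under median-of-ratios scaling, 1 if eBayes had no trend, 1446 with library weights (whose estimation stopped before convergence), 12 with the replicate number as a block, 57 after removal of the length and GC trend and 84 without controls 2 and 3. Leaving out 1 library gave 0 to 4254 calls, the highest without control 1. With no filter 1928 genes had p under 0.05 before adjustment, as had 875, 765 and 799 without control 3, CXCL3 library 1 and CXCL3 library 2, where 0 were called. Of the other iron genes, 1 was called (Hp), against 0 with no filter, median-of-ratios scaling and eBayes without trend, 8 with library weights (1446 over all genes), and 0 to 18 with 1 library left out (0 to 4254 over all genes). Members whose groups did not overlap numbered 3, and 5 with the trend removed, 9 without controls 2 and 3 (where 1 control is left, assumed to vary like the other group) and 3 to 9 with 1 library left out. The share of all genes without overlap was not counted in these alternative settings, so nothing is read from their numbers. Deviations of same-numbered libraries from their group means were weakly correlated over genes (0.122, -0.0112 and 0.0775). With 3 libraries in each group and the controls divided, these values cannot show whether the numbers pair them. TPM keeps no depth, so the precision of low genes such as Slc40a1 is unknown.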
